A study of Punica granatum with 4 samples.

Results

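The genes described here had high transcript levels in pomegranate leaves sprayed with water or with 60 µM abscisic acid (ABA), and low levels in leaves sprayed with 30 or 90 µM ABA. They were chosen on the measured values themselves. Counts were scaled to the library total as CPM (the share of a library's counts on a fixed scale), and 0.1 CPM was added. A gene was a member when the smaller of its values at 0 and 60 µM was at least 2 times the larger of its values at 30 and 90 µM. Its mean over the 4 libraries had to be at least 2 CPM, and the 100 genes with the highest mean were left out. Of 27893 features in the table, 17435 met the filter on the mean and were outside those 100, and 117 of these (0.671%) were members. The alternation itself is therefore the rule and not a finding, and no test is given for it.

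All plants were pomegranate (Punica granatum) of the strain labelled Hongmanao, with the genotype label wt and an age of 180 days. They were raised from rooted twig cuttings, with 1 plant in a pot, for 90 days. In all 4 groups the soil was then dried to 30% to 35% of the field water capacity, while leaves received a daily spray of 5 mL of water (0 µM, the control) or of ABA at 30, 60 or 90 µM. No well-watered group is among these libraries. RNA was taken from leaves, and each dose was represented by 1 library. The labels do not say how many plants went into a library, whether the cuttings came from the same mother plant, or for how many days the spraying lasted. No difference below has a replicate check, and the intervals given cover counting error only.

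ABA is the hormone that plants make in drying tissue. It binds receptors of the PYR/PYL family, which then block PP2C phosphatases and so release SnRK2 kinases, and these close stomata and switch on protective genes through bZIP transcription factors. In a simple dose response, a transcript controlled by this pathway moves in the same direction as the dose grows or levels off. The genes below did neither, because the rule asks for a fall, a rise and a fall along the series of doses. Whether this pathway controls them was not tested. The members are known only by their identifiers. Neither the count table nor the RefSeq gene table used for names pairs them with a product, so the roles of single members are not given, and the pathway lists and leaf markers planned for this work had no members to count.

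Library totals ranged between 22118468 counts (0 µM) and 28366719 counts (60 µM), so that 3 counts corresponded to between 0.106 and 0.136 CPM. The median log2 ratio over the 17435 genes was -0.15 for 90 against 0 µM when scaled by library totals, and scaling by TMM factors moved it up by 0.14. TMM scaling centres such ratios by design, so an effect of scaling and a broad fall at 90 µM cannot be told apart here. Changes at 90 µM are to be read beside that median. In bulk leaf RNA, fewer cells of a type and less RNA per cell cannot be told apart.

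Together the members took 0.353% of all counts at 0 µM (exact 95% binomial interval 0.350% to 0.355%), 0.0716% at 30 µM (0.0705% to 0.0726%), 0.409% at 60 µM (0.407% to 0.411%) and 0.0627% at 90 µM (0.0618% to 0.0637%). Their median level was 11.3 CPM at 0 µM, 1.95 CPM at 30 µM, 10.4 CPM at 60 µM and 1.73 CPM at 90 µM. The median over the 17435 genes was 26.8, 25.8, 26.3 and 24.0 CPM in the same order of doses, so the members had fewer reads than most genes even in the libraries where they were high. Of the 117, 44 had a mean under 5 CPM and 4 had a mean of 100 CPM or more. The 5 members with the most reads held 34.1%, 35.8%, 37.3% and 32.0% of the members' summed CPM along the same doses, a similar share in each library.

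**Figure D1:**
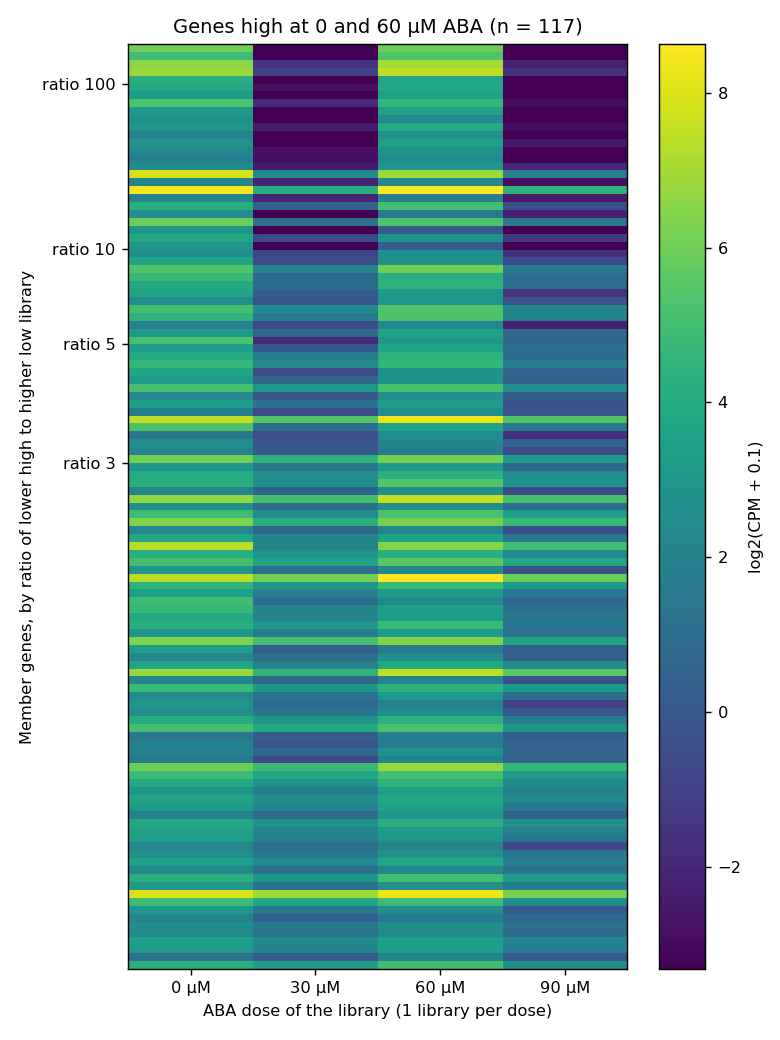
Level of each of the 117 member genes (rows) in the 4 libraries (columns, ABA dose in µM), as log2(CPM + 0.1) on the colour scale. Rows are ordered by the ratio of the smaller value at 0 and 60 µM to the larger value at 30 and 90 µM, and the ticks mark where that ratio passes 100, 10, 5 and 3. The 26 genes with a ratio of at least 10 include the 21 that had 10 or fewer counts at both 30 and 90 µM. The other 5, with more than 10 counts in a low library, stand among them in the order.

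The size of the gap ran over a wide range. The ratio that defined the members had a median of 2.81 and lay between 2.00 and 614. Where the low libraries held few or 0 counts, its size was set largely by the added 0.1 CPM, and with 1 CPM added the highest ratio was 81.4 and 11 genes had one of at least 10. With 0.1 CPM, it was at least 100 in 5 genes, at least 10 in 26, at least 5 in 38 and under 3 in 64. In 21 genes, both the 30 and the 90 µM library held 10 or fewer counts, and 9 of these had 0 counts in both. At 0 and 60 µM the smallest count of any member was 47 and 29. For 72 of the 117 members, the exact 95% interval of each of the 4 ratios (0 and 60 µM over 30 and 90 µM) lay wholly above 2. For the other 45 the interval of the limiting ratio reached 2 or below, so counting error alone could have placed them on either side of the threshold.

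The members nearest to the threshold show how narrow that line is. LOC116187094, the last gene inside, had 18.6, 9.23, 30.9 and 6.39 CPM at 0, 30, 60 and 90 µM and a ratio of 2.00. LOC116203004 (47, 24, 119 and 24 counts), LOC116194504 (191, 101, 291 and 85 counts), LOC116200399 (237, 122, 296 and 118 counts) and LOC116194358 (111, 58, 144 and 46 counts) had ratios between 2.03 and 2.04. The first gene outside, LOC116210028, had 7.14, 1.91, 3.91 and 0.827 CPM and a ratio of 1.99. LOC116216043, LOC116189994, LOC116193492 and LOC116195443 followed with ratios between 1.98 and 1.99. The 5 members inside differed from the threshold by less than the counting interval of their own ratio.

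The 10 members with the largest ratio were read in the libraries at 0 and 60 µM and close to unread in those at 30 and 90 µM. LOC116210933 had 1452, 0, 1740 and 0 counts at 0, 30, 60 and 90 µM. Against a floor of 3 counts in the libraries without a read, its level at 0 µM was at least 526-fold that at 30 µM and at least 581-fold that at 90 µM. At 60 µM it was at least 491-fold that at 30 µM and at least 543-fold that at 90 µM. The 0 and 60 µM libraries were alike for this gene, with a ratio of 0.934 for 60 over 0 µM (interval 0.871 to 1.00). LOC116189976 had 673, 0, 1133 and 0 counts, and its level at 60 µM was 1.31 times that at 0 µM (1.19 to 1.45). LOC116209956 had 2050, 6, 3683 and 3 counts, 92.7 CPM at 0 µM and 130 CPM at 60 µM against 0.249 CPM at 30 µM and 0.113 CPM at 90 µM. In these genes the libraries at 0 and 60 µM were within 1.5-fold of each other, and each was over 100 times the libraries at 30 and 90 µM.

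LOC116213234 had 2527, 10, 5075 and 6 counts, and its ratio of the 0 µM to the 30 µM library, the limiting one, was 275 (interval 149 to 574). LOC116196374 had 406, 0, 381 and 0 counts. LOC116215005 had 329, 1, 392 and 0 counts. None of these had more than 10 reads at 30 or 90 µM. LOC116207941 had 214, 0, 315 and 0 counts. LOC116202306 had 827, 4, 692 and 1 counts, with a limiting ratio of 147 for 60 over 30 µM (interval 57.0 to 540). LOC116196892 had 194, 0, 334 and 0 counts, and LOC116212677, a long non-coding RNA (lncRNA) gene, had 141, 0, 138 and 0. A count of 0 allows up to 3 counts in that library, so a level of up to about 0.1 CPM remains possible where no read was counted.

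The 10 members with the most reads formed another group, in which 9 of 10 kept at least 97 counts at 30 and 90 µM. Reads per gene grow with transcript length, so these counts are compared between libraries and not between genes. LOC116214897 had 7758, 421, 11245 and 565 counts, or 351, 17.5, 396 and 21.2 CPM, and a limiting ratio of 16.5 for 0 over 90 µM (interval 15.2 to 18.0). LOC116199227 had 5360, 127, 3286 and 97 counts, with a limiting ratio of 21.9 for 60 over 30 µM (18.4 to 26.4). LOC116213234, described above, is the gene of this group with few reads there, 10 and 6. In the other 7 the ratio was between 2.07 and 4.10.

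LOC116204443 had 180, 43.8, 309 and 42.3 CPM at 0, 30, 60 and 90 µM. LOC116188248 had 100.4, 34.4, 188 and 35.4 CPM, and LOC116206417 had 63.2, 28.6, 111 and 23.9 CPM. In these genes the libraries at 30 and 90 µM were within 1.2-fold of each other, while 60 µM stood above 0 µM by 1.72-fold, 1.87-fold and 1.76-fold. LOC116209170 had 255, 123, 326 and 71.6 CPM, the highest level of any member in a low library, and its limiting interval of 1.98 to 2.17 held the threshold. LOC116197164 had 114, 22.9, 179 and 47.7 CPM. LOC116208886 had 172, 66.7, 379 and 62.0 CPM, and LOC116208328 had 167, 4.20, 85.8 and 31.5 CPM. These last genes show that members differed in how far the 2 libraries of a pair lay apart.

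**Figure D2:**
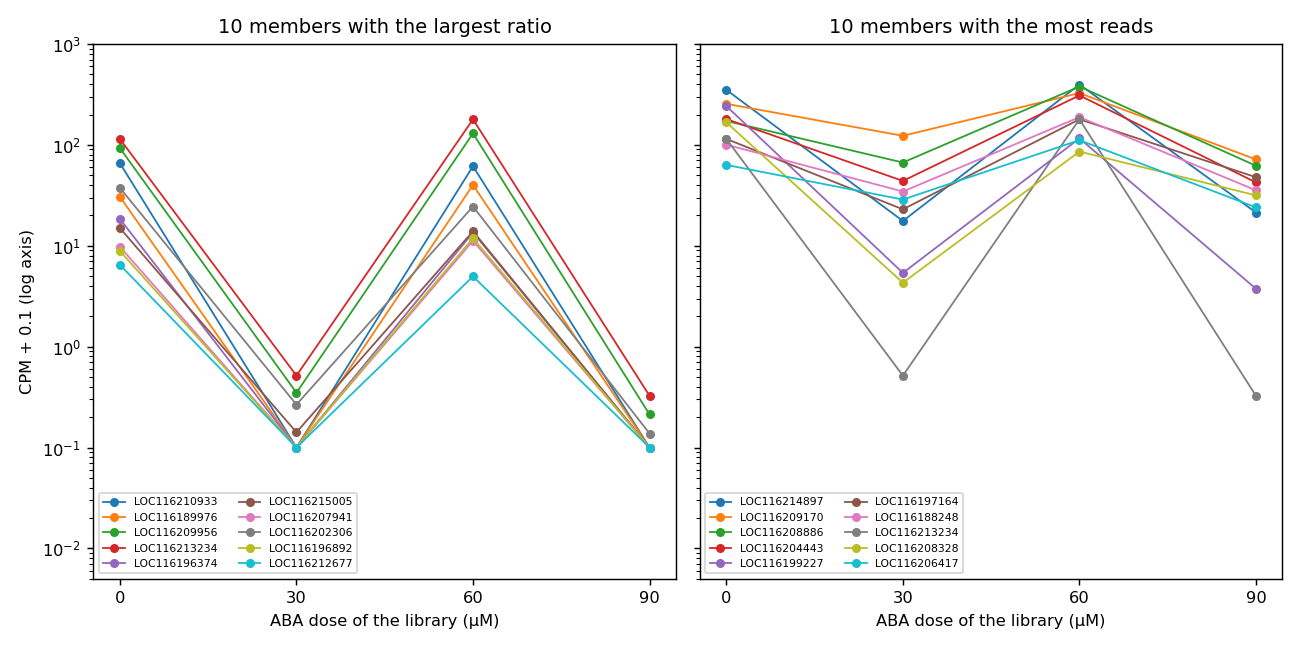
Level in each library, as CPM + 0.1 on a log axis, against the ABA dose of the library in µM, for the 10 members with the largest ratio (left) and the 10 with the most reads (right). Each line joins the 4 libraries of a gene, with 1 library per dose and no error bars. Genes on the left fall to the added 0.1 CPM or close to it at 30 and 90 µM, while on the right all but LOC116213234 keep at least 3.65 CPM there.

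How alike the libraries of a pair were is the question the rule did not settle, although it bounds the answer, since a gene with a large gap inside a pair enters less easily. A gene was called different between 2 libraries when the exact 95% interval of its ratio lay wholly above 2 or wholly below 0.5, which is a limit on size only and involves no test. Between 60 and 0 µM, 10 of the 117 members were past 2-fold (8.55%), against 5.93% of the 17435 genes. At 60 µM, 2 were higher (1.71%, against 3.12% of all) and 8 lower (6.84%, against 2.81% of all). Between 90 and 30 µM it was 6 of the 117 (5.13%), against 5.94% of the 17435 genes. At 90 µM, 2 were higher (1.71%, against 2.16% of all) and 4 lower (3.42%, against 3.78% of all). Under TMM or DESeq2 scaling this balance turned round, with 3 higher and 2 lower. Between 90 and 30 µM the share past 2-fold was near the background. Between 60 and 0 µM the share lower at 60 µM was above it, and the share higher was below it. That contrast depended on the limit of 2-fold. At 1.5-fold, 11 members were higher and 13 lower, and the shares of all genes at that limit were not counted. Members had fewer reads, with a median mean of 6.48 CPM beside 26.3 CPM over all genes, so a call was harder to reach. These shares were not matched on expression, and the differences were not tested. The median log2 ratio of members was 0.15 for 60 over 0 µM (quartiles -0.32 and 0.48), beside -0.03 over all 17435 genes. For 90 over 30 µM it was -0.22 (quartiles -0.66 and 0.08), beside -0.11 over all genes.

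The order of the 4 libraries varied among the members. In 69 genes the 60 µM library was above the 0 µM library, and in 48 below it. The 90 µM library was above the 30 µM library in 34 genes and below it in 74, and 9 genes had 0 counts in both. How many of all 17435 genes ran in each direction was not counted. Their median log2 ratio was -0.03 for 60 over 0 µM and -0.11 for 90 over 30 µM by library totals. TMM scaling moved the latter up by 0.11, so the lower levels at 90 µM are not particular to the members.

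**Figure D3:**
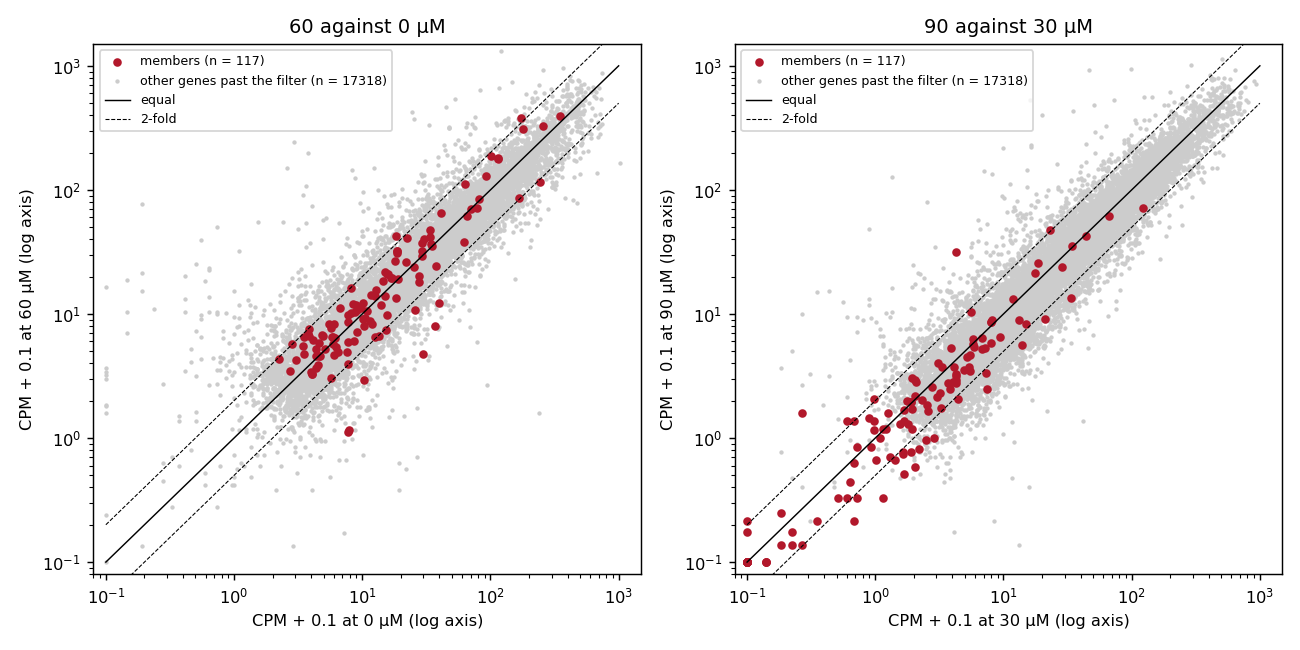
Level at 60 µM against 0 µM (left) and at 90 µM against 30 µM (right), as CPM + 0.1 on log axes, for the 117 members (red) and the other 17318 genes that met the filter (grey). The solid line marks equal levels and the dashed lines a 2-fold difference. Most members lie between the dashed lines in both panels, and 10 (left) and 6 (right) are past 2-fold by the interval rule.

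The genes that were higher at 60 than at 0 µM beyond 2-fold were LOC116193835 and LOC116208886. LOC116193835 had 403, 137, 1206 and 165 counts, and its level at 60 µM was 2.33 times that at 0 µM (interval 2.08 to 2.62). LOC116208886 had 3814, 1605, 10737 and 1649 counts, a ratio of 2.20 (2.12 to 2.28). Both were also more than 2-fold below the control at 30 and at 90 µM, so against the same control library they were called higher at 1 dose and lower at the doses on each side of it. Among the 17435 genes, 10 were called higher at 60 and lower at 30 µM against that library, and 9 higher at 60 and lower at 90 µM. These counts are for each dose apart. A gene in both sets meets the rule of the members, apart from the added 0.1 CPM, so its being a member is not a finding.

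Among the 8 that were lower at 60 than at 0 µM, LOC116199227 was 0.478 times its 0 µM level (interval 0.458 to 0.499), and this call ended under TMM and DESeq2 scaling, which left the other 7. LOC116215006 had 171, 0, 30 and 0 counts, a ratio of 0.137 (0.0896 to 0.202), and LOC116189788 had 168, 0, 29 and 0 counts, a ratio of 0.135 (0.0875 to 0.200). The counts of these 2 genes were nearly equal in each library, and whether they are copies that share reads was not tested. LOC116190228 had 657, 44, 132 and 43 counts, a ratio of 0.157 (0.129 to 0.189). LOC116199940 had 877, 44, 343 and 78 counts, LOC116214373 had 572, 103, 302 and 52, and LOC116189833 had 225, 27, 81 and 29. In these genes the control library stood apart from the 60 µM library as well as from the low pair.

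LOC116190292 differed inside both pairs. It had 808, 4, 225 and 40 counts, with a ratio of 0.217 for 60 over 0 µM (interval 0.186 to 0.252) and of 9.05 for 90 over 30 µM (3.27 to 34.8). LOC116208328 (3694, 101, 2433 and 837 counts) was the other gene above 2-fold at 90 against 30 µM, with a ratio of 7.50 (6.09 to 9.31). Those below 2-fold at 90 against 30 µM were LOC116207442 with 398, 177, 762 and 63 counts, LOC116211908 with 1786, 801, 2394 and 356, LOC116187053 with 640, 336, 825 and 147, and LOC116210713 with 94, 47, 126 and 13. Their ratios of 90 over 30 µM were 0.322, 0.402, 0.396 and 0.250 in that order. The calls of LOC116187053 and LOC116210713 ended under TMM and DESeq2 scaling, and LOC116197164 was then called higher at 90 µM. In the last 4 genes the fall at 90 µM was the larger of the pair of falls, while 60 and 0 µM were within 1.5-fold.

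The contrasts that the rule used are given for completeness, and nothing is read from them. Against the control, 87 of the 117 members were lower past 2-fold by the interval rule at 30 µM, where 1.62% of the 17435 genes were, and 103 at 90 µM, where 4.59% were. Going from 30 to 60 µM, 94 were higher, beside 3.69% of all genes. Going from 60 to 90 µM, 109 were lower, beside 4.35% of all genes. The control library is shared by the comparisons against it, and each of the other libraries by those between doses.

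Features of the genes that did not enter the rule came from RefSeq's gene table (assembly ASM765513v2), in which all 117 members and all 17435 genes had an entry. Protein-coding genes made up 108 of the members (92.3%, against 97.6% of the 17435 genes) and lncRNA genes 9 (7.69%, against 2.35%). lncRNAs are transcripts without a long reading frame. Members were 2.20% of the 410 lncRNA genes and 0.635% of the 17012 protein-coding genes. No rRNA, snoRNA or snRNA gene was a member, out of 7, 4 and 2 that met the filter. A single listed transcript was found for 73.5% of members and 64.9% of the 17435 genes. These shares were not matched on expression, and their difference was not tested.

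With 0.1 CPM added, the lncRNA members included several of the widest gaps. With 1 CPM added, 11 members had a ratio of at least 10, and none of them was a lncRNA gene. Besides LOC116212677 above, LOC116215962 had 177, 2, 460 and 1 counts at 0, 30, 60 and 90 µM. LOC116202634 had 105, 1, 189 and 0 counts, and LOC116194119 had 123, 2, 217 and 4. These 4 lncRNA genes had ratios between 22.6 and 49.6, among the 17 members with a ratio of 20 or more, and between 5.52 and 8.31 with 1 CPM added. LOC116202050 had 76, 14, 131 and 3 counts and LOC116206718 had 350, 76, 597 and 44, with ratios of 5.18 and 4.89. LOC116210253 (86, 22, 93 and 15 counts), LOC116209700 (100, 37, 126 and 17) and LOC116207203 (134, 70, 178 and 54) had ratios of 3.33, 2.77 and 2.05. All 9 were detected at 0 and 60 µM with 76 to 597 counts.

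Members were found on all 8 chromosomes and on sequence that the assembly leaves unplaced. Chromosome 6 held 18 (1.09% of its 1644 genes that met the filter) and chromosome 5 held 17 (0.912%). The share on the other 6 chromosomes was between 0.447% and 0.596%. Unplaced sequence held 11 members among 134 genes, 8.21%, or 9.40% of the members beside 0.769% of the genes. The genes with the opposite pattern, high at 30 and 90 µM by the same rule turned round (64 genes, 0.367%), included 1 unplaced gene (0.746% of the 134) and 14 on chromosome 6 (0.852% of its genes). Reads of unplaced sequence can be shared with placed copies, and whether they were was not tested.

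The 11 unplaced members, singled out after their values were seen, had ratios between 2.40 and 305, or between 1.82 and 31.4 with 1 CPM added. LOC116189976, LOC116189788, LOC116190292, LOC116190228 and LOC116189833 are given above, for a large ratio or for being past 2-fold inside a pair. Of the 11, 4 are among the 8 members that were lower at 60 than at 0 µM. Over the 17435 genes 2.81% were lower, and the share among the 134 unplaced genes was not counted. LOC116190302 had 1375, 48, 1085 and 72 counts. LOC116191968 had 337, 13, 206 and 9 counts, and LOC116189785 had 125, 0, 83 and 3. In each of these the 60 µM library was below the 0 µM library, with ratios of 0.615, 0.477 and 0.518. LOC116191956 had 555, 116, 678 and 91 counts, LOC116190297 had 136, 43, 152 and 49, and LOC116190355 had 100, 44, 162 and 29. In these the high libraries were within 1.3-fold of each other.

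**Figure D4:**
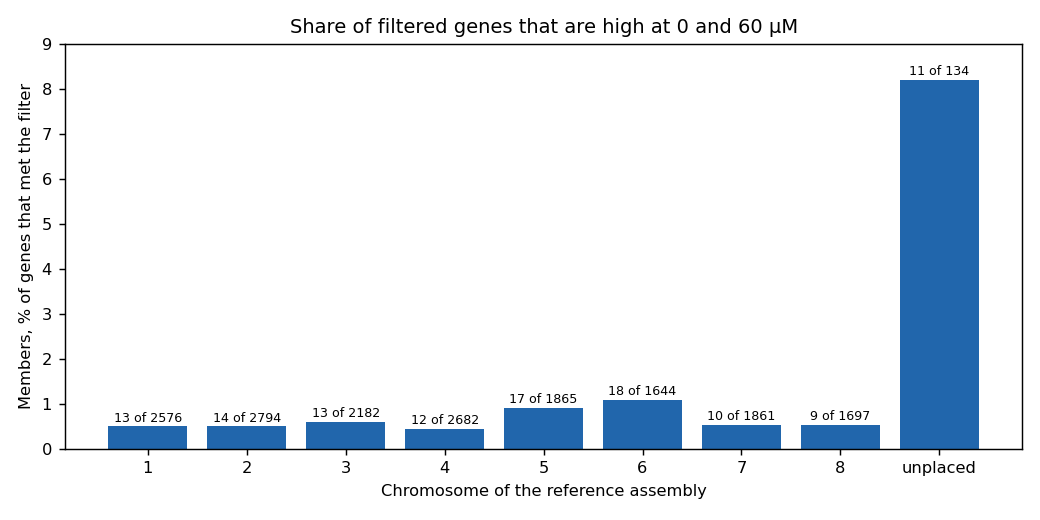
Share of the genes that met the filter which were members, in %, on each of the 8 chromosomes and on unplaced sequence of the assembly. Numbers above the bars are members of all genes that met the filter. The share was 8.21% on unplaced sequence, against 0.447% to 1.09% on the chromosomes.

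Position in the gene order was the other feature independent of the values. On the chromosomes, 6 of 106 placed members (5.66%) had another member as the next gene in the order of all listed genes, against 114 of 17195 other placed genes (0.663%) that had a member next to them. Within 5 places it was 16 of 106 (15.1%), against 598 of 17195 (3.48%). None of the 106 had a gene of the opposite pattern next to it, against 0.362% of the other genes, and 3 (2.83%) had one within 5 places, against 1.62%. These counts are a description with no test. The 16 genes formed 7 runs, 5 of 2 members and 2 of 3.

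The run on chromosome 7 held 3 members in 4 places, and the gene among them missed only the filter on the mean. In order, LOC116215006 had 171, 0, 30 and 0 counts, LOC116215003 had 39, 13, 143 and 7, LOC116215005 had 329, 1, 392 and 0, and LOC116214115 had 74, 1, 155 and 0. LOC116215003 had a ratio of 2.91 and a mean of 1.90 CPM. The gene before the run, LOC116215004, had 3, 5, 7 and 7 counts. Higher levels at 0 and 60 µM thus extended over 4 genes in a row, of which the 3 members were chosen for that pattern. The ratio of 60 to 0 µM ran in both directions among the 4 genes. LOC116215006 had nearly the same counts as the unplaced LOC116189788, and whether they share reads was not tested.

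On chromosome 6, LOC116210710 (345, 43, 596 and 49 counts), LOC116210713 (94, 47, 126 and 13) and LOC116210923 (1565, 508, 1991 and 241) were members within 4 places. LOC116210711, which lies between the first and second and overlaps LOC116210713, had 28, 16, 49 and 5 counts. Its levels were higher at 0 and 60 µM too, with fewer reads, but its ratio of 1.79 was below the threshold. Without a stated strand setting, it is not known how reads from the stretch shared by LOC116210711 and LOC116210713 were assigned. LOC116211182, the gene before the run, had 14.4, 6.11, 7.97 and 1.17 CPM and a ratio of 1.30, also below the threshold. Elsewhere on chromosome 6, LOC116209956 and LOC116211522 (83, 0, 185 and 0 counts) were separated by LOC116212196, which had 0 counts in every library.

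The neighbours on chromosome 5, LOC116207216 (128, 12, 181 and 6 counts) and LOC116206988 (493, 72, 1164 and 104), were next to each other. On chromosome 1, LOC116208047 (294, 14, 187 and 34 counts) and LOC116213234 were separated by LOC116213244, which had 286, 462, 544 and 350 counts and did not share the pattern. On chromosome 3, LOC116198565 (186, 38, 339 and 42 counts) and LOC116201958 (328, 162, 610 and 137) were separated by a gene with 0, 0, 1 and 2 counts. LOC116201290, just before them, had 767, 100, 498 and 240 counts and a ratio of 1.93, close below the threshold. Also on chromosome 3, LOC116199520 (642, 316, 905 and 235 counts) and LOC116198650 (232, 87, 259 and 71) had 4 genes between them, with ratios from 0.873 to 1.11. Some runs therefore spanned neighbours of the same pattern and others skipped genes without it.

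**Figure D5:**
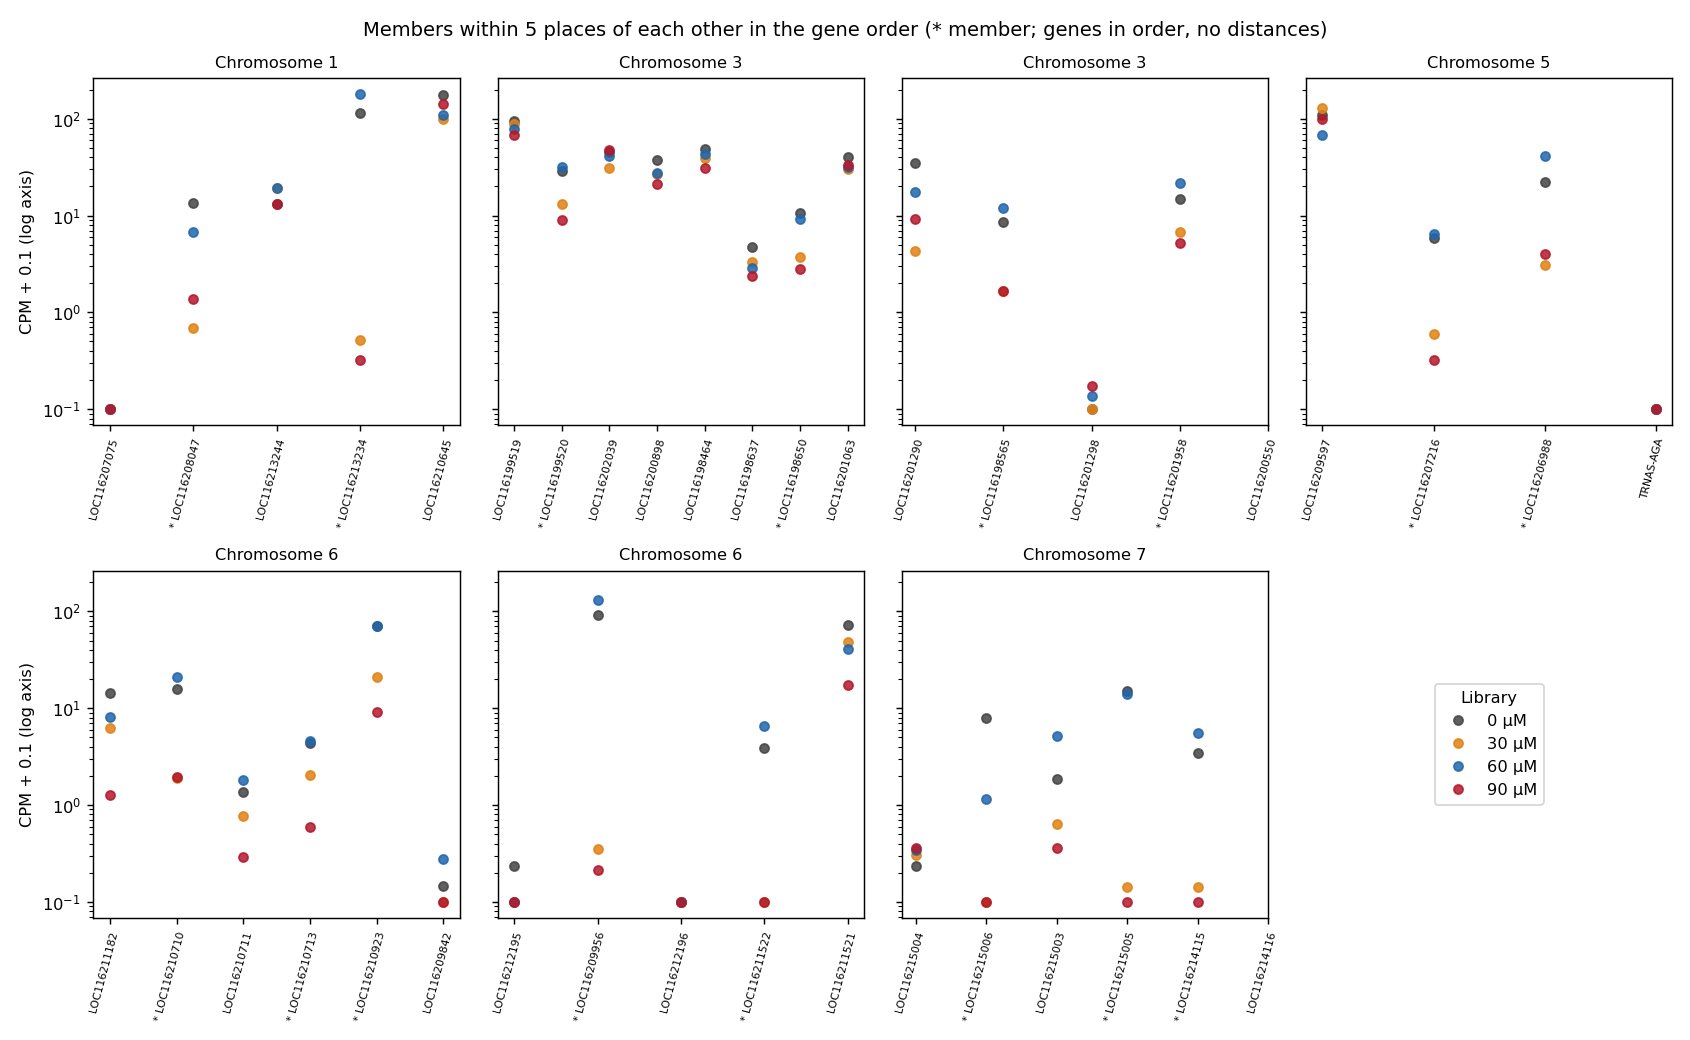
Level of each gene, as CPM + 0.1 on a log axis, in the 4 libraries (colours) for the 7 runs of members within 5 places of each other, with the gene before and after each run. Genes stand in their order on the chromosome with no distances, members carry a star, and a gene that is not in the count table has no points. In the panel of chromosome 7 the gene between the members, LOC116215003, has its higher levels at 0 and 60 µM too.

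Of the placed members, 6 overlapped another listed gene, and for these the counted reads may belong to either. LOC116207531 (131, 21, 130 and 34 counts) overlaps LOC116207533, which had 51, 1, 20 and 2 counts. LOC116195560 (282, 92, 437 and 140) overlaps LOC116195559, which had 476, 197, 405 and 201. In both, the partner was higher at 0 and 60 µM as well. LOC116195580 (119, 53, 232 and 51) overlaps LOC116195576, which had 2662, 3430, 3586 and 3402 counts, and LOC116194504 overlaps LOC116194501, which had 191, 298, 315 and 334. These partners did not share the pattern. LOC116197023 (87, 28, 91 and 40) overlaps genes with at most 3 counts in any library.

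Within 5 places of a gene of the opposite pattern lay LOC116196818, LOC116194958 and LOC116197848. LOC116196818 had 222, 21, 347 and 52 counts, while LOC116192043 near it had 6, 53, 14 and 139. LOC116194958 had 76, 15, 182 and 20 counts, while LOC116195060 had 950, 3193, 905 and 2821. LOC116197848 had 199, 100, 305 and 75 counts, while LOC116195544 had 231, 821, 228 and 618. These 3 places are few, and their share of the members was near that of the other genes. As a set, the 64 genes of the opposite pattern took 0.0603%, 0.243%, 0.0571% and 0.211% of counts at 0, 30, 60 and 90 µM, and 5 of them had 10 or fewer counts in both of their low libraries.

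The remaining members, 56 placed protein-coding genes that no naming rule reached, had ratios between 2.06 and 38.2 with a median of 2.48. Some of them are the overlapping genes and the neighbours of opposite genes just given. Their counts ran from 58 to 1750 at 0 µM (median 199.5), from 0 to 446 at 30 µM (median 55), from 90 to 2030 at 60 µM (median 243.5) and from 1 to 681 at 90 µM (median 51.5). At the top of this group was LOC116214401 with 146, 0, 312 and 2 counts, the 1 gene of the 56 with a ratio above 20. In 4 of the 56 the ratio was at least 10.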

How the data were processed

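RNA sequencing counts were analysed for 4 leaf libraries, 1 per dose. The table deposited by the authors holds whole-number counts of reads for each gene, without normalization, and 0 of its columns came from other samples. The submitters' processing notes name FastQC, the aligner HISAT2 and the counter featureCounts. Not given in the sources used here are tool versions, how strand and reads with several matches were handled, and the build of the genome, so no coordinates are printed and copies, overlapping and antisense genes are uncertain.

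CPM were computed from column totals, and 0.1 CPM was added before ratios and logs. Ratios between libraries carry exact 95% conditional binomial (Clopper-Pearson) intervals, and a call needs the interval wholly past 2-fold. TMM factors (edgeR 4.0.16) and size factors (DESeq2 1.42.0) were alternatives. Python 3.11.15 with SciPy 1.17.1 was used. With 1 library per dose, no test was made. Neighbours are in the order of genes of the RefSeq table, placed chromosomes only. Reads amplified without molecular identifiers are not independent molecules.

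The members, gene lists and rules were chosen with earlier results of these data known. Named genes were the 10 largest ratios, the 10 with most reads, 5 on each side of the threshold, members within 5 places of another, members past 2-fold inside a pair, and non-coding members. The genes on unplaced sequence, overlapping genes, neighbours and LOC116214401 were named after their values were seen. The reference held no product descriptions, protein or promoter sequences, so the lists, motifs and protein copies planned were not analysed here.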

Additional observations from a re-analysis of the deposited data

Results flagged for a closer look

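Against the same control library, 2 members were more than 2-fold higher at 60 µM and more than 2-fold lower at 30 µM, and 2 were more than 2-fold higher at 60 µM and more than 2-fold lower at 90 µM. They are the same genes, LOC116193835 and LOC116208886. They were flagged because the differences of single libraries from the control ran in opposite directions. Lower levels at 30 and 90 µM were fixed by the choice of members, and a level at 60 µM above the control was not. A gene that met the filter and had these differences at 30, 60 and 90 µM meets the rule, apart from the added 0.1 CPM. Finding such genes among the members therefore follows from the selection. Over the 17435 genes, 10 were called higher at 60 and lower at 30 µM, and 9 higher at 60 and lower at 90 µM. Those counts are for each dose apart and give no share for the joint pattern. LOC116193835 had 5.70 CPM at 30 µM, 42.5 CPM at 60 µM and 6.21 CPM at 90 µM, against 18.2 CPM in the control. That difference between doses was not tested, since each has a single library.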

How the results depend on the processing

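Against 117 members, there were 283 with no filter on the mean, 73 with a mean of at least 5 CPM, 53 at 3 times, 49 at 4 times and 72 when all 4 intervals had to lie above 2. TMM and DESeq2 scaling gave 107 and 104, all of them members, offsets of 1 and 0.01 CPM gave 84 and 122, and keeping the 100 most abundant genes added none. With each library in turn left out of the ratio, a choice made after seeing the data, 422 genes passed without 0 µM, 670 without 30 µM, 272 without 60 µM and 259 without 90 µM, because fewer conditions had to be met. Members higher at 60 than at 0 µM were 11 at 1.5-fold and 0 at 4-fold, and those lower 13 and 3, with 7 under TMM and 7 under DESeq2 scaling. Members higher at 90 than at 30 µM were 4 and 1, and those lower 14 and 0, and under TMM and under DESeq2 scaling 3 were higher and 2 lower. The shares of all genes past 1.5-fold and 4-fold were not counted, so the members' counts at those limits have no background beside them. Members with a member neighbour were 12 in the order of genes that met the filter (11.3%, against 1.15% of other placed genes). Within 5 places they were 16 (15.1%, against 3.48%). The medians inside the pairs kept their direction under every scaling and offset run. No single member's ratio fell below 1 under the scalings and offsets run, but with 1 CPM added 39 of the 117 ratios left their counting interval. No paired analysis was possible because each dose has 1 library. The alternatives for protein copies and for motifs were not run. Low counts limit the genes under about 5 CPM.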
